A study of Mus musculus with 23 samples.

Results

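The 33 genes described here encode enzymes and regulators of cholesterol and fatty acid synthesis, and were taken as a list of mouse gene symbols of lipid synthesis under SREBP control. All 33 were found among the 55487 genes of the count table, and all 33 were among the 15748 genes that passed the expression filter and were tested. Of these, 8 act in the mevalonate pathway (Acat2, Hmgcs1, Mvk, Pmvk, Mvd, Idi1, Fdps and Ggps1) and 12 in making squalene and turning it into cholesterol (Fdft1, Sqle, Lss, Cyp51, Tm7sf2, Lbr, Msmo1, Nsdhl, Hsd17b7, Ebp, Sc5d and Dhcr7). Another 4 are regulators or a sterol carrier (Srebf1, Srebf2, Insig1 and Stard4), and 9 make, elongate or desaturate fatty acids (Acly, Acss2, Acaca, Fasn, Elovl6, Scd1, Scd2, Fads1 and Fads2).

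RNA was profiled by RNA-seq in primary mouse embryonic fibroblasts (MEFs), which were grown from mid-gestation embryos of heterozygous intercrosses of the FVB/NJ strain and were not transformed. All cultures were homozygous for 1 of 4 forms of the glucocorticoid receptor (GR): GRwt/wt, with no change in the protein, GRD/D, in which the DNA-binding domain carries an alanine-to-threonine exchange, GRL/L, in which the ligand-binding domain carries an isoleucine-to-alanine exchange, and GRD+L/D+L, with both exchanges. Cultures received solvent (vehicle) or 10 nM dexamethasone (Dex), a synthetic GR ligand, for 5 h, and each group had 3 libraries, except for 2 of GRD/D vehicle. The study gives a separate mouse for each culture of a companion experiment with more Dex, and its methods refer to the same setup for these libraries without naming the animals. If the replicates do not come from separate animals, p-values measure only the spread between these samples, which may be technical. The effect of a genotype and that of the few cultures that stand for it cannot be told apart. In such bulk samples, less RNA per cell and fewer cells that express a gene cannot be told apart either.

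Cholesterol is built from acetyl-CoA by way of mevalonate, isoprenoid units, squalene and lanosterol, and fatty acids are built from the same acetyl-CoA by acetyl-CoA carboxylase and fatty acid synthase. The genes of both routes are classical targets of the sterol regulatory element-binding proteins (SREBPs), transcription factors that are held in the endoplasmic reticulum with Scap by Insig proteins while sterols are plentiful. When sterols run low, SREBPs are carried to the Golgi, cut by proteases and released to the nucleus. GR is itself a transcription factor, and its ligands change lipid metabolism in tissues such as liver and adipose tissue.

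Total counts per library were between 16.5 M and 23.1 M. The 8 fibroblast markers were present in every group, with a summed level of 39900 to 64800 CPM (counts divided by the TMM-adjusted library size, the unit of all levels below). GRwt/wt vehicle replicate 1 stood apart, since its highest Spearman correlation with any other library was 0.916, against at least 0.973 elsewhere, and its deviations were correlated across genes with the GC content of the transcripts (rho 0.709). GRwt/wt Dex replicate 1 came next in both measures, with 0.973 and a rho of 0.333, and rho was at most 0.205 in size in the other libraries. For several members GRwt/wt vehicle replicate 1 held by far the lowest GRwt/wt vehicle level, and for several others, such as Mvk and Mvd, the highest. Those values are given below. GRwt/wt Dex replicate 2 differed from the other GRwt/wt libraries in the members themselves: 27 of 33 lay below their median over all 23 libraries, with a median deviation of -0.39 on the log2 scale, whereas in the other GRwt/wt libraries that median lay between 0.74 and 1.27. The same library held 384 CPM of the GR target Fkbp5 against 350 and 311 CPM in the other GRwt/wt Dex libraries and 19.3 to 44.9 CPM in GRwt/wt vehicle.

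The first comparison was between genotypes in vehicle. A gene was called when its Benjamini-Hochberg adjusted p, from the quasi-likelihood test of edgeR, was at most 0.05 and its log2 fold change (LFC) at least 1 in size, and was said to pass when the adjusted p alone met its threshold. Lipid synthesis genes were lower in cells of both mutants that carry the exchange in the ligand-binding domain, GRL/L and GRD+L/D+L, than in GRwt/wt cells. In GRL/L, 21 of 33 members were called lower and 23 passed, where 2.84% of all tested genes were called lower and 14.2% passed. In GRD+L/D+L, 20 were called lower and 23 passed, against 4.71% and 13.3% of all tested genes. No member was called or passed in the higher direction in either mutant. Both comparisons share the GRwt/wt libraries.

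Taken over all members, the summed level was 5470 ± 791 CPM (SD, n = 3) in GRwt/wt vehicle, 4120 ± 177 CPM (n = 2) in GRD/D, 2490 ± 491 CPM in GRL/L and 2420 ± 328 CPM in GRD+L/D+L (n = 3 for both). Sums of CPM, here and below, follow the most abundant members most, above all Scd2 where it is included. The lowest GRwt/wt vehicle library held 4560 CPM and the highest GRL/L and GRD+L/D+L vehicle libraries 3060 and 2800 CPM, so these groups did not overlap. The GRD/D vehicle libraries, with 4240 and 3990 CPM, lay below all GRwt/wt vehicle libraries too. The median LFC over the members was -1.39 for GRL/L and -1.55 for GRD+L/D+L, whereas it was -0.05 over all tested genes in both. Every GRL/L library lay below every GRwt/wt library for 23 of 33 members, as it did for 18.4% of all tested genes. Every GRD+L/D+L library did so for 24 members, against 13.9% of all tested genes.

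**Figure D1:**
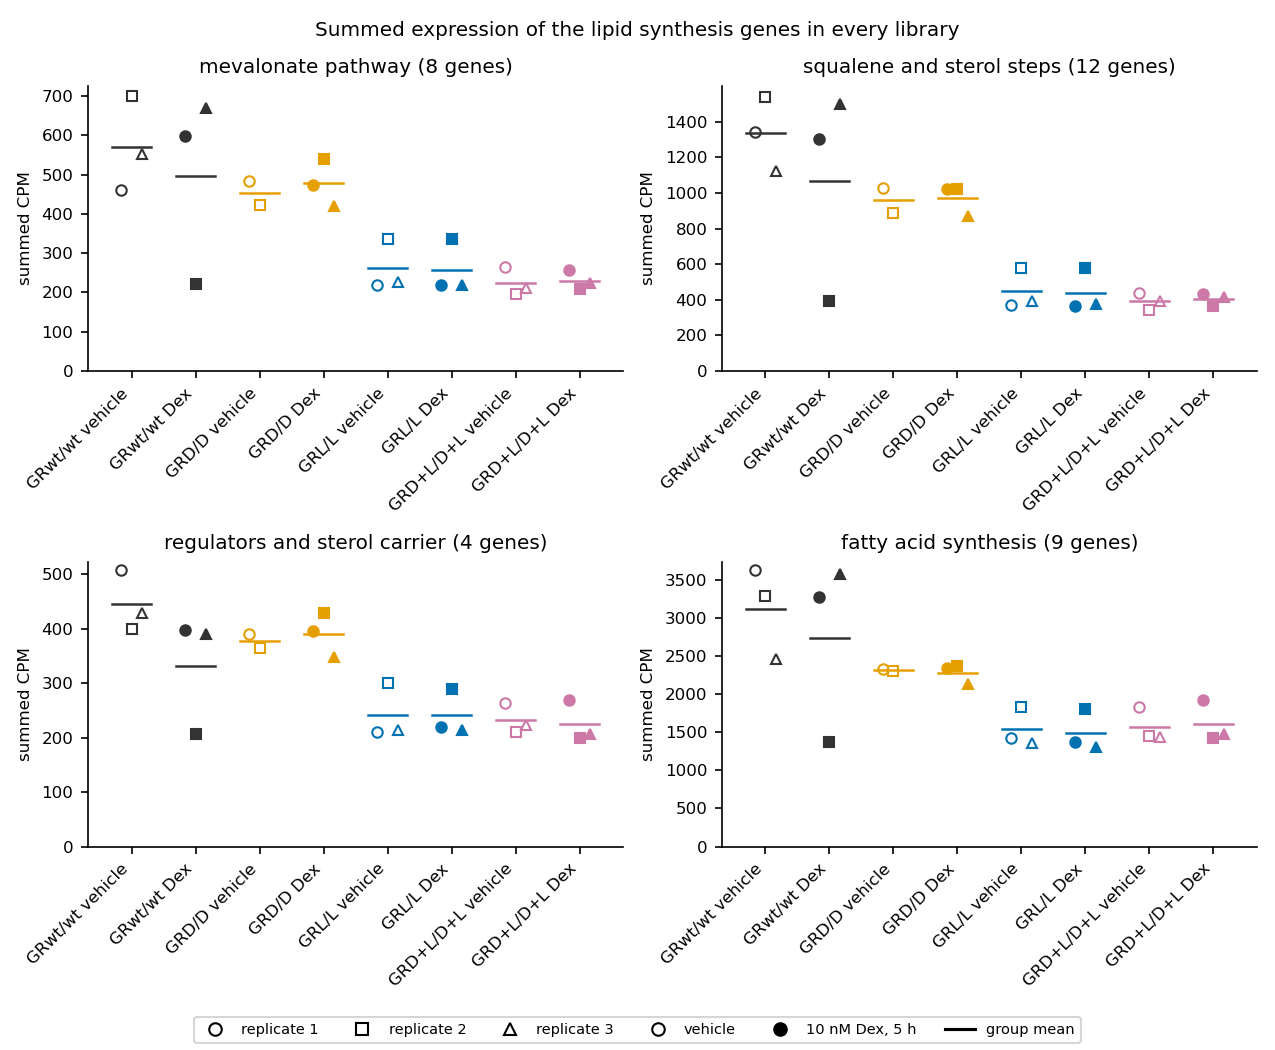
Summed CPM of the members of each role (4 panels, linear axis from 0) in every library, by genotype. Open points are vehicle, filled points Dex, the shape gives the replicate number and the line the group mean. In each panel, GRL/L and GRD+L/D+L points lie below all GRwt/wt vehicle and all GRD/D points, and GRwt/wt Dex replicate 2 is the lowest point of its genotype.

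In the mevalonate pathway, 5 of 8 members were called lower in each of these mutants, with median LFC of -1.88 for GRL/L and -1.95 for GRD+L/D+L. Their summed level was 570 ± 121 CPM in GRwt/wt vehicle (n = 3), 261 ± 65.6 CPM in GRL/L (n = 3) and 224 ± 35.6 CPM in GRD+L/D+L (n = 3). The 5 genes were Acat2, Mvk, Pmvk, Mvd and Fdps.

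Acat2, a cytosolic thiolase that joins acetyl-CoA units, amounted to 107, 85.6 and 47.4 CPM in the 3 GRwt/wt vehicle libraries, to 18.4, 27.0 and 20.8 CPM in GRL/L and to 25.4, 13.7 and 17.5 CPM in GRD+L/D+L. Its LFC was -1.86 (SE 0.36, adjusted p 0.00183) for GRL/L and -2.09 (SE 0.36, adjusted p 0.00142) for GRD+L/D+L, without overlap between either mutant and GRwt/wt. Of its 50-base stretches, 39.1% also occur in other genes, mainly Acat3 and Tcp1, so its counts may be incomplete. Mvk, mevalonate kinase, held 109, 77.9 and 50.8 CPM in GRwt/wt, 18.7, 23.8 and 20 CPM in GRL/L and 25.1, 16.7 and 16.6 CPM in GRD+L/D+L. The LFC of Mvk was -1.92 (SE 0.35, adjusted p 0.00124) and -2.02 (SE 0.35, adjusted p 0.00138), again without overlap. Pmvk, which adds the next phosphate, held 48.8, 35.8 and 21.6 CPM in GRwt/wt, 9.27, 11.6 and 7.65 CPM in GRL/L and 11.9, 9.19 and 7.83 CPM in GRD+L/D+L. Its LFC was -1.89 (SE 0.34, adjusted p 0.00115) for GRL/L and -1.87 (SE 0.34, adjusted p 0.00177) for GRD+L/D+L. For all 3 of these genes GRwt/wt vehicle replicate 1 was the highest library and replicate 3 the lowest of its group.

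Mvd, the decarboxylase that forms isopentenyl diphosphate, amounted to 109, 66.7 and 46.5 CPM in GRwt/wt, 14.0, 23.6 and 13.8 CPM in GRL/L and 14.7, 12.0 and 14.0 CPM in GRD+L/D+L, LFC of -2.11 (SE 0.44, adjusted p 0.00268) and -2.45 (SE 0.44, adjusted p 0.00177). Fdps (ENSMUSG00000059743, GRCm38 chromosome 3, 89093588 to 89101959), which makes farnesyl diphosphate, had the largest difference of all members in both mutants. It amounted to 28.5, 21.9 and 11.9 CPM in GRwt/wt, 2.28, 5.17 and 2.84 CPM in GRL/L and 2.85, 1.88 and 2.18 CPM in GRD+L/D+L. Fdps was thus 6.04-fold lower in GRL/L (LFC -2.59, SE 0.56, adjusted p 0.00358) and 9.0-fold lower in GRD+L/D+L (LFC -3.17, SE 0.58, adjusted p 0.00188). Of the 50-base stretches of Fdps, 26.2% are shared with other genes, mainly Gm43738, which overlaps it on the same strand, and further gene copies.

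The other 3 members of the pathway did not pass. Hmgcs1, the synthase upstream of mevalonate, had an LFC of -0.72 in GRL/L (95% interval -1.76 to 0.32) and -1.02 in GRD+L/D+L (-2.07 to 0.03). GRwt/wt vehicle replicate 1 held 51.7 CPM of Hmgcs1, whereas the other GRwt/wt vehicle libraries held 350 and 326 CPM, GRL/L 116, 205 and 122 CPM and GRD+L/D+L 144, 102 and 113 CPM. Apart from that library, GRwt/wt vehicle was therefore above both mutants. Idi1, the isomerase of isopentenyl diphosphate, was similar: it held 1.54 CPM in that library, 29.7 and 18.4 CPM in the other two, 4.66 to 9.26 CPM in GRL/L and 2.84 to 7.57 CPM in GRD+L/D+L, with LFC of -1.33 (adjusted p 0.19) and -1.79 (adjusted p 0.094). Ggps1, which leads from farnesyl diphosphate to geranylgeranyl diphosphate and so away from sterols, held 4.47, 32.2 and 28.4 CPM in GRwt/wt, 31.4 to 36.6 CPM in GRL/L and 32.2 to 37.4 CPM in GRD+L/D+L. Its LFC was 0.66 (95% interval -0.16 to 1.48) in GRL/L and 0.72 (-0.11 to 1.54) in GRD+L/D+L.

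**Figure D2:**
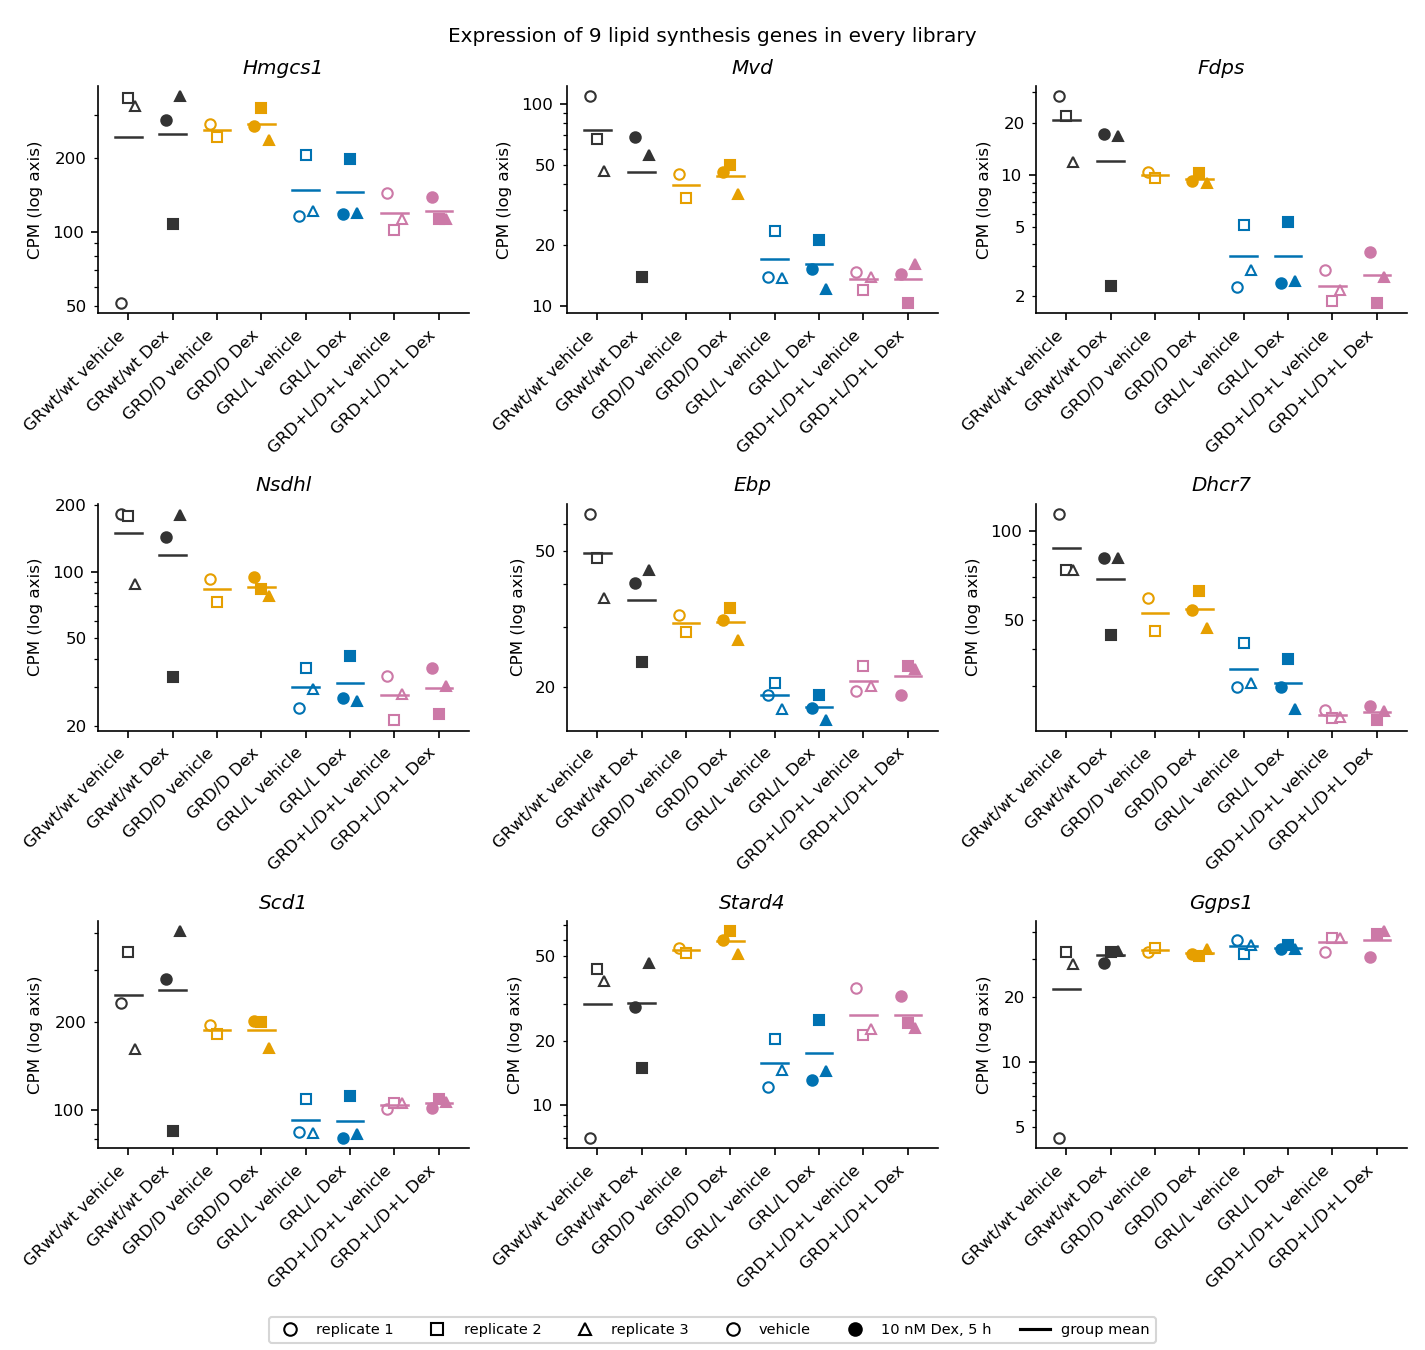
CPM (log axis) of 9 members in every library, by genotype, with vehicle open and Dex filled. Hmgcs1, Stard4 and Ggps1 show 1 low GRwt/wt vehicle point, replicate 1, with 51.7, 7.01 and 4.47 CPM, while for Nsdhl, Ebp and Dhcr7 all GRL/L and GRD+L/D+L vehicle points lie below all GRwt/wt vehicle points.

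Of the 12 genes of the squalene and sterol steps, 9 were called lower in GRL/L (median LFC of the 12 -1.67) and 9 in GRD+L/D+L (median -1.92). The summed level of the 12 genes was 1330 ± 210 CPM in GRwt/wt vehicle, 449 ± 115 CPM in GRL/L and 391 ± 47.5 CPM in GRD+L/D+L (n = 3 each). Fdft1, squalene synthase and the first step committed to sterols, amounted to 221, 164 and 109 CPM in GRwt/wt, 29.7, 52.0 and 30.5 CPM in GRL/L and 42.6, 35.8 and 41.9 CPM in GRD+L/D+L. The LFC of Fdft1 was -2.14 (SE 0.39, adjusted p 0.00124) and -2.04 (SE 0.39, adjusted p 0.00227). The exons of Fdft1 overlap Ctsb on the other strand, and since the strandedness of the counting was not given in the sources used here, reads of the overlap cannot be assigned.

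Nsdhl (ENSMUSG00000031349, GRCm38 chromosome X, 72918557 to 72958514), which takes part in removing the methyl groups at carbon 4 of the sterol ring, held 183, 179 and 87.6 CPM in GRwt/wt, 24.1, 36.6 and 29.3 CPM in GRL/L and 33.5, 21.2 and 27.9 CPM in GRD+L/D+L. It was 4.98-fold lower in GRL/L (LFC -2.32, SE 0.44, adjusted p 0.00163) and 5.43-fold lower in GRD+L/D+L (LFC -2.44, SE 0.44, adjusted p 0.00177). Ebp (ENSMUSG00000031168, chromosome X, 8185329 to 8193512), a sterol isomerase, had the smallest adjusted p of the members in GRL/L. It held 64.2, 47.6 and 36.5 CPM in GRwt/wt, 18.9, 20.6 and 17.2 CPM in GRL/L and 19.5, 23.1 and 20.1 CPM in GRD+L/D+L. Its LFC was -1.39 (SE 0.21, adjusted p 0.000405) for GRL/L and -1.24 (SE 0.21, adjusted p 0.0012) for GRD+L/D+L, without overlap. Dhcr7 (ENSMUSG00000058454, chromosome 7, 143823145 to 143848410), the reductase that makes cholesterol from 7-dehydrocholesterol, had the smallest adjusted p in GRD+L/D+L. It amounted to 114, 74.1 and 73.7 CPM in GRwt/wt, 29.8, 42.0 and 30.8 CPM in GRL/L and 25, 23.5 and 23.6 CPM in GRD+L/D+L. The LFC of Dhcr7 was -1.35 (SE 0.23, adjusted p 0.000857) and -1.86 (SE 0.23, adjusted p 0.000163).

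The other called genes of these steps were Sqle, squalene epoxidase (LFC -1.70 for GRL/L and -1.88 for GRD+L/D+L), Lss, lanosterol synthase (-1.63 and -1.96), Cyp51, lanosterol demethylase (-1.77 and -2.01), Tm7sf2, a sterol reductase (-2.22 and -2.56), and Msmo1, a sterol-C4 oxidase (-1.77 and -2.03). Their adjusted p ranged from 0.00449 to 0.0179 in GRL/L and from 0.0022 to 0.0113 in GRD+L/D+L. Levels of all 5 genes did not overlap between GRwt/wt and either mutant. Lbr, which shares the reductase step of Tm7sf2 and also anchors chromatin at the nuclear envelope, had an LFC of 0.29 (95% interval -0.32 to 0.90) in GRL/L and 0.07 (-0.54 to 0.68) in GRD+L/D+L. Hsd17b7 and Sc5d did not pass either. Hsd17b7 had an LFC of -0.60 in GRL/L and -0.89 (adjusted p 0.0508) in GRD+L/D+L, and Sc5d -0.56 and -0.74. In GRwt/wt vehicle replicate 1, Sc5d held 21.6 CPM and Lbr 8.16 CPM, the lowest values of these genes in any library.

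Promoter windows were available from RefSeq (GRCm38.p6, 250 bases before to 50 after the start) for 26 of 33 members. Fdft1, Sqle, Stard4, Fdps, Scd2, Scd1 and Fads1 had no window. Below are the 250 bases before the start of Hmgcs1, the single member with a sterol regulatory element core, of Ebp and Nsdhl, which were called lower in both mutants, and of Ggps1, which was not lower, with their positions and gene strands. Capitals mark the sterol regulatory element core TCACNCCAC, the inverted CCAAT box ATTGG and the GC box GGGCGG, each in either orientation.
Hmgcs1 (chr13:119690101-119690350, plus strand): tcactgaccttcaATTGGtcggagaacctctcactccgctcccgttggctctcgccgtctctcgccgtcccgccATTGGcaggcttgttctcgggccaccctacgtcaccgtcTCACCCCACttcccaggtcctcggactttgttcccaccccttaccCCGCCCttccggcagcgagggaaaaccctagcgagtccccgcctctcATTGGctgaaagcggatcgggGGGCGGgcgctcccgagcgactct
Ebp (chrX:8193513-8193762, minus strand): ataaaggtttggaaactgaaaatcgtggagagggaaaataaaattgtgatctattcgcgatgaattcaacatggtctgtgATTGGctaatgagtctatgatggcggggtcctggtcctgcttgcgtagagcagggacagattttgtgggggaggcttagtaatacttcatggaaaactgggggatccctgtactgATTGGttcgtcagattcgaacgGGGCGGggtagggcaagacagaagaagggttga
Nsdhl (chrX:72918271-72918520, plus strand): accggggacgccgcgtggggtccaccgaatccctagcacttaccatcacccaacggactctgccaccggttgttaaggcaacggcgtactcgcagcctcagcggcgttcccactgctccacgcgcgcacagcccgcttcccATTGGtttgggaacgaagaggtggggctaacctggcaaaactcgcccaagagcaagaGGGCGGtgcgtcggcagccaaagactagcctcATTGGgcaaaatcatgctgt
Ggps1 (chr13:14063489-14063738, minus strand): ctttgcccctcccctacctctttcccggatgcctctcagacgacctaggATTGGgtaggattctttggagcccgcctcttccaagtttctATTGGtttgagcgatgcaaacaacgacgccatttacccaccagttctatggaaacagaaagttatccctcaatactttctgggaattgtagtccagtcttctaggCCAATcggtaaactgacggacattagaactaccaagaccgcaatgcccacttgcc

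In the Hmgcs1 window, the sterol regulatory element core lies 137 to 129 bases before the start. The inverted CCAAT box was found in 22 of the 26 windows (84.6% of members), where 41.1% of the 27025 gene symbols with a window and 42.4% of the tested genes with one held it. Acaca, Acat2, Elovl6 and Fads2 had none, and of these Acat2 and Fads2 were called lower in both mutants. The stretch printed for Ggps1 holds 3 copies. The GC box occurred in 21 of 26 windows (80.8%), against 38.2% of all symbols and 67.2% of tested genes. The sterol regulatory element core, with 1 free base, occurred in 1 of 26 (3.85%, Hmgcs1), against 1.44% of all symbols and 1.39% of tested genes. An E-box, CACGTG, occurred in 4 of 26 (15.4%) against 8.09% of all symbols and 11.4% of tested genes, and a glucocorticoid response element with any 3-base spacer, ACANNNTGT, in 2 of 26 (7.69%, Acat2 and Acss2) against 7.9% and 5.3%. Both strands were searched, ATTGG and CCAAT being the same site. These matches describe letters in these windows only, and elements farther from the start were not searched.

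Among the regulators, Insig1, the retention protein and itself a classical SREBP target, was called lower in both mutants. Vehicle libraries held 80.5, 97.2 and 77.4 CPM of Insig1 in GRwt/wt, 23.4, 44.1 and 27.3 CPM in GRL/L and 31.2, 19.3 and 21.8 CPM in GRD+L/D+L, LFC of -1.43 (adjusted p 0.00937) and -1.82 (adjusted p 0.00321). The genes of the SREBPs passed without reaching the fold threshold. Srebf2, whose product mainly drives sterol genes, held 301, 181 and 225 CPM in GRwt/wt, 108, 169 and 111 CPM in GRL/L and 131, 105 and 118 CPM in GRD+L/D+L, LFC of -0.87 (SE 0.26, adjusted p 0.023) and -1.0 (SE 0.26, adjusted p 0.014), the latter short of the fold threshold only before rounding. Srebf1, whose product mainly drives fatty acid genes, held 119, 78.5 and 87.1 CPM in GRwt/wt and 61.2 to 67.7 CPM over the GRL/L and GRD+L/D+L vehicle libraries, LFC of -0.54 (adjusted p 0.00959) and -0.57 (adjusted p 0.00913). Neither gene overlapped between GRwt/wt and the mutants. Stard4, a sterol carrier, did not pass, with LFC of -0.92 (95% interval -1.93 to 0.10) in GRL/L and -0.16 (-1.17 to 0.84) in GRD+L/D+L. Its GRwt/wt vehicle libraries held 7.01, 43.6 and 38.5 CPM, the low value again in replicate 1.

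In fatty acid synthesis, 6 of 9 members were called lower in GRL/L (median LFC -1.12), and in GRD+L/D+L 5 were called and 6 passed (median -1.11). Their summed level was 3130 ± 602 CPM in GRwt/wt vehicle, 1540 ± 262 CPM in GRL/L and 1570 ± 222 CPM in GRD+L/D+L (n = 3 each). Members that supply acetyl-CoA and those that desaturate fatty acids were lower, while the carboxylase, the synthase and the elongase did not pass. Acss2, which makes acetyl-CoA from acetate, held 45, 39.8 and 16.3 CPM in GRwt/wt, 10.4, 12.2 and 7.50 CPM in GRL/L and 7.67, 6.17 and 9.18 CPM in GRD+L/D+L. The LFC of Acss2 was -1.75 (SE 0.36, adjusted p 0.00277) and -2.14 (SE 0.37, adjusted p 0.00137). Acly, which makes acetyl-CoA from citrate, was near the fold threshold, with -1.03 (adjusted p 0.0062) in GRL/L and -0.79 (adjusted p 0.0297) in GRD+L/D+L.

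Of the desaturases, Fads1 held 377, 300 and 255 CPM in GRwt/wt, 125, 170 and 120 CPM in GRL/L and 129, 125 and 122 CPM in GRD+L/D+L, LFC of -1.17 (SE 0.24, adjusted p 0.00249) and -1.31 (SE 0.24, adjusted p 0.00189). Fads2, which acts on the same polyunsaturated fatty acids, had LFC of -1.40 and -1.55. The stearoyl-CoA desaturases Scd1 and Scd2, which make oleate, had LFC of -1.41 (adjusted p 0.0107) and -1.23 (adjusted p 0.0255) for Scd1, and of -1.12 and -1.11 for Scd2. All 4 desaturase genes were without overlap between GRwt/wt and either mutant. By contrast, Fasn, fatty acid synthase, had an LFC of -0.46 (95% interval -1.02 to 0.09) in GRL/L and -0.45 (-1.0 to 0.10) in GRD+L/D+L. Acaca, acetyl-CoA carboxylase, had 0.34 (-0.04 to 0.73) and 0.19 (-0.19 to 0.58), and Elovl6, an elongase, 0.00 (-1.13 to 1.12) and 0.11 (-1.01 to 1.23). In GRwt/wt vehicle replicate 1, Elovl6 held 7.34 CPM against 75.7 and 57.2 CPM in the other GRwt/wt vehicle libraries, and Acaca held 29.4 CPM against 51.1 and 50.6 CPM.

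**Figure D3:**
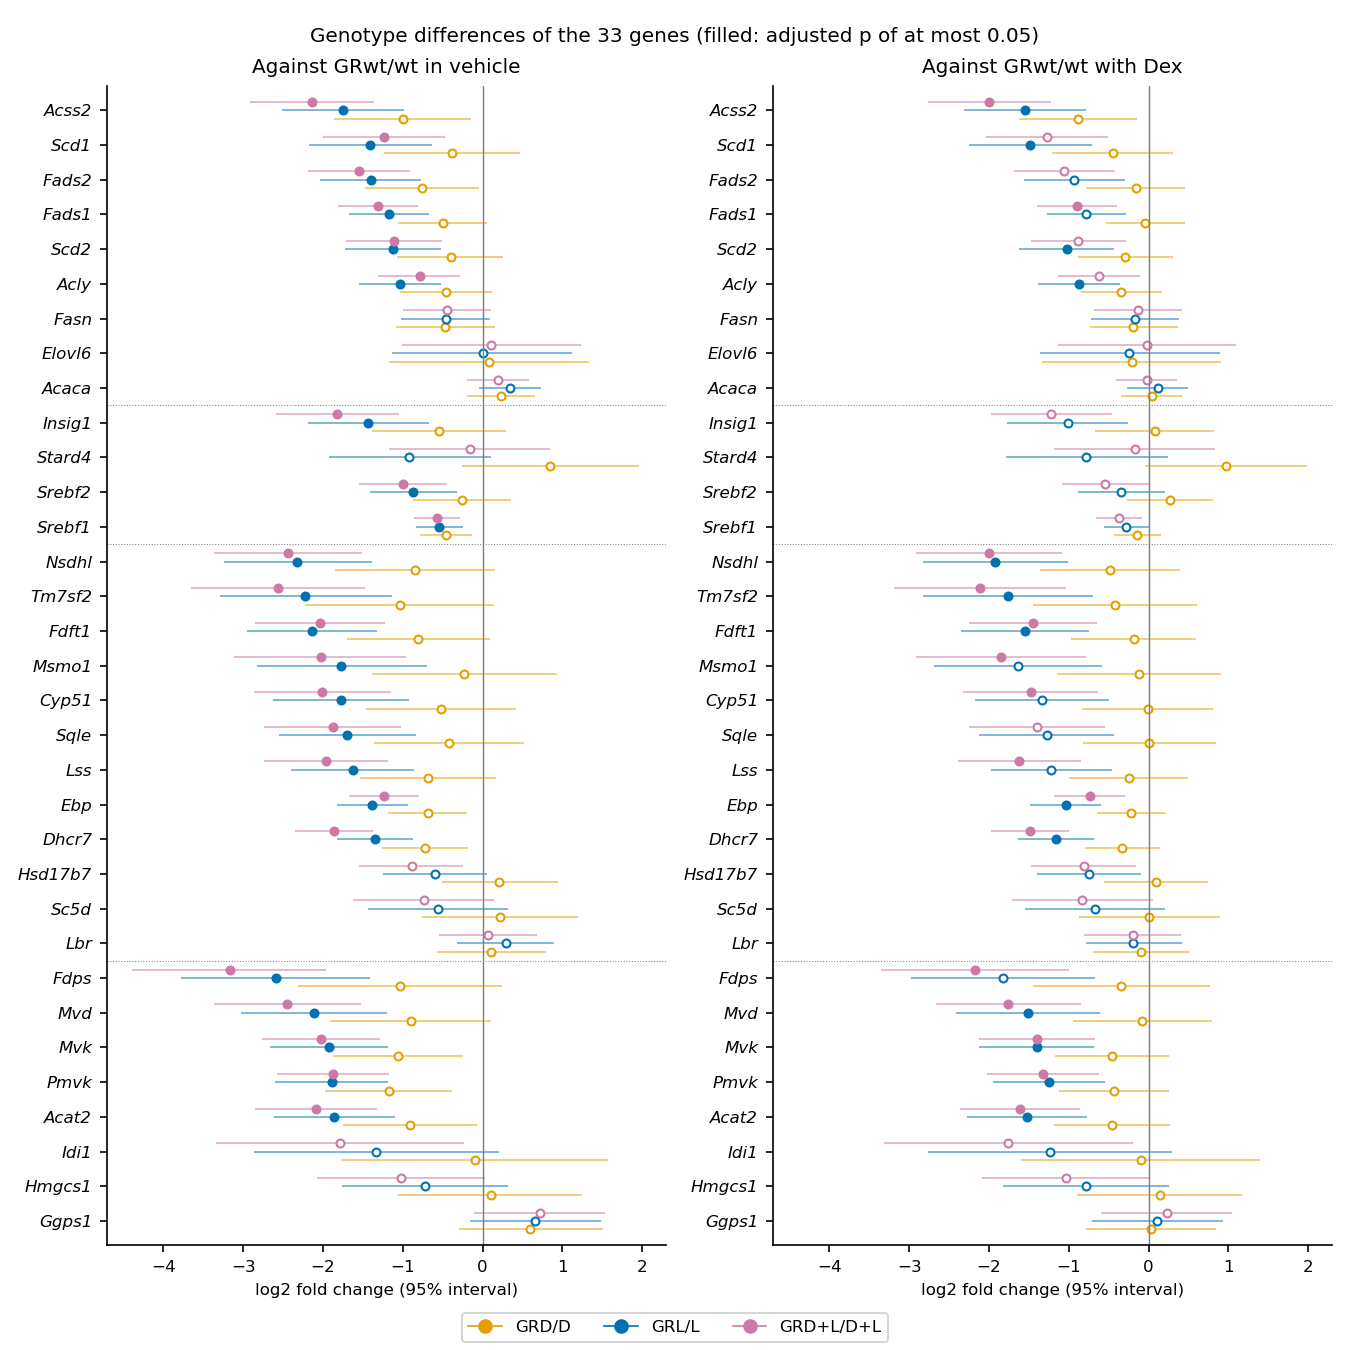
LFC with 95% interval of the 33 members in each of the 3 mutant genotypes against GRwt/wt, in vehicle (left) and with Dex (right). Filled points passed the adjusted p threshold and dotted lines separate the roles. In vehicle, 23 GRL/L and 23 GRD+L/D+L points are filled, all below 0, and no GRD/D point is.

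These counts in vehicle stayed between 19 and 24 in GRL/L and between 17 and 22 in GRD+L/D+L when single libraries were left out, and were 24 and 22 without GRwt/wt vehicle replicate 1 (2.1% and 5.24% of all genes in that fit called lower). A fit of only the 2 genotypes compared called 15 members in GRL/L (2.08% of all genes) but 1 in GRD+L/D+L (0.292%). Marker levels of other cell types differed between the groups too. The 6 neural and glial markers, none of which was at 0 in a whole group, summed to 93.1 to 107 CPM in GRwt/wt vehicle, 68.5 to 122 CPM in GRD/D, 17.1 to 42.0 CPM in GRL/L and 15.4 to 60.5 CPM in GRD+L/D+L. The 8 macrophage markers, none at 0 in a whole group, summed to 17.9 to 4550 CPM in GRwt/wt vehicle (highest in replicate 3), 294 to 665 CPM in GRL/L and 9.38 to 78.3 CPM in GRD+L/D+L. The 8 adipocyte markers summed to 11.2 to 232 CPM in GRwt/wt vehicle, 80.2 to 151 CPM in GRL/L and 44.7 to 101 CPM in GRD+L/D+L, with Cidec and Cfd at 0 in all 3 groups. Over all 23 libraries, epithelial markers summed to 0.861 to 5.90 CPM, endothelial markers to 3.42 to 20.9 CPM and muscle markers to 12.2 to 267 CPM. The part of all these markers in the result was not tested.

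In GRD/D, no member was called or passed against GRwt/wt in vehicle, where 0.00635% of all tested genes were called lower, and DESeq2 called 0 members as well. Before adjustment, 8 members had a p under 0.05, 25 of 33 LFC were below 0, and the median was -0.47. The members with the largest differences were Pmvk, with 17.9 and 13.4 CPM in the GRD/D vehicle libraries and an LFC of -1.17 (95% interval -1.97 to -0.38, adjusted p 0.332), Mvk, with 40.1 and 35.7 CPM and -1.06 (-1.88 to -0.24), and Tm7sf2, with 28.4 and 20.7 CPM and -1.04 (-2.23 to 0.14). Pmvk and Mvk in GRD/D lay below all GRwt/wt vehicle libraries, while Tm7sf2 overlapped with replicate 3, at 23.6 CPM. Without GRwt/wt vehicle replicate 1 the LFC of Pmvk, Mvk and Tm7sf2 were -0.86, -0.75 and -0.57. Without replicate 3 of that group they were -1.38, -1.25 and -1.33. Both GRD/D vehicle libraries lay below every GRwt/wt vehicle library for 17 of 33 members, as they did for 12.1% of all tested genes. They lay above every GRwt/wt vehicle library for 11.1% of all tested genes and for 2 members, Stard4 (55.0 and 52.1 CPM, LFC 0.85, adjusted p 0.488) and Ggps1 (32.3 and 33.6 CPM, LFC 0.60, adjusted p 0.531). Without GRwt/wt vehicle replicate 3, 2 members were called in GRD/D, where 0.587% of all genes in that fit were called lower.

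With Dex, the same comparison between genotypes gave fewer calls. In GRL/L, 12 members were called lower and 13 passed, against 1.23% and 2.9% of all tested genes. In GRD+L/D+L, 13 were called lower and 15 passed, against 1.87% and 2.97%. No member was called higher. In GRD/D, 0 members were called or passed, where 0.241% of all tested genes were called lower. DESeq2 called 0 there, and 1 member had an unadjusted p under 0.05. Median LFC were -1.04 in GRL/L, -1.22 in GRD+L/D+L and -0.16 in GRD/D. That of GRD/D was -0.50 without GRwt/wt Dex replicate 2, -0.02 without replicate 1 and 0.06 without replicate 3 of that group, so its direction is not settled. The median for GRL/L was -1.39 and that for GRD+L/D+L -1.60 without replicate 2, and they were -0.81 and -0.82 without replicate 3. For most members the groups overlapped. Every GRL/L library lay below every GRwt/wt library for 4 members and every GRD+L/D+L library for 5, against 20.4% and 14.7% of all tested genes. Macrophage markers with Dex summed to 16.9 to 93.4 CPM in GRwt/wt, 280 to 696 CPM in GRL/L and 7.82 to 74.3 CPM in GRD+L/D+L. Neural and glial markers summed to 67.3 to 74.5, 18.6 to 41.7 and 14.0 to 62.9 CPM in the same order. The part of these markers was not tested.

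Members called in both mutants with Dex are illustrated by Nsdhl, with 143, 33.4 and 180 CPM in GRwt/wt Dex, 26.8, 41.5 and 25.9 CPM in GRL/L and 36.4, 22.6 and 30.2 CPM in GRD+L/D+L. Its LFC was -1.92 (SE 0.43, adjusted p 0.0155) for GRL/L and -2.0 (SE 0.43, adjusted p 0.0166) for GRD+L/D+L, although GRwt/wt Dex replicate 2 lay within the range of both mutants. Dhcr7 did not overlap, with 80.8, 44.6 and 80.9 CPM in GRwt/wt, 29.9, 37.2 and 25.2 CPM in GRL/L and 25.7, 23.1 and 24.9 CPM in GRD+L/D+L. It had the smallest adjusted p in both, with an LFC of -1.16 (adjusted p 0.00765) and -1.48 (adjusted p 0.00234). Acss2 held 29.3, 16.4 and 49.9 CPM in GRwt/wt Dex, 10.4, 11.9 and 10.3 CPM in GRL/L and 8.05, 6.95 and 8.95 CPM in GRD+L/D+L, without overlap, LFC of -1.55 (adjusted p 0.0186) and -2.0 (adjusted p 0.00627). Ebp held 40.3, 23.6 and 44.1 CPM in GRwt/wt Dex, 17.4, 19.0 and 16 CPM in GRL/L and 18.9, 23 and 22.6 CPM in GRD+L/D+L. It was called in GRL/L (LFC -1.04, adjusted p 0.00826) and passed in GRD+L/D+L (-0.74, adjusted p 0.0476).

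By role, the calls with Dex were 4 of 8 mevalonate genes, 5 of 12 sterol genes, 0 of 4 regulators and 3 of 9 fatty acid genes in GRL/L, and 5, 7, 0 and 1 in GRD+L/D+L. Acat2 amounted to 75.4, 28.4 and 86.8 CPM in GRwt/wt Dex, 18.8, 29.0 and 18.5 CPM in GRL/L and 24.8, 18.0 and 19.5 CPM in GRD+L/D+L, LFC of -1.52 (adjusted p 0.0194) and -1.61 (adjusted p 0.0185). For Acat2, GRwt/wt Dex overlapped with GRL/L but not with GRD+L/D+L. The other mevalonate calls were Mvk, Pmvk and Mvd in both mutants and Fdps in GRD+L/D+L (LFC -2.17, adjusted p 0.0348), with LFC of -1.25 to -1.76 for the first 3. The GRwt/wt Dex libraries held 74.2, 21.4 and 62.1 CPM of Mvk, 31.8, 11.6 and 30.6 CPM of Pmvk, 68.9, 13.9 and 56.1 CPM of Mvd and 17.2, 2.30 and 16.8 CPM of Fdps, with replicate 2 lowest for each. In the mutants with Dex, Mvk lay between 16.4 and 24.3 CPM, Pmvk between 8.10 and 12.4 CPM and Mvd between 10.4 and 21.2 CPM, and Fdps between 1.84 and 3.59 CPM in GRD+L/D+L, ranges that include the low GRwt/wt library. Of the sterol genes, Fdft1 and Tm7sf2 were also called in both mutants, with LFC of -1.55 and -1.76 in GRL/L and -1.45 and -2.11 in GRD+L/D+L, and Lss, Cyp51 and Msmo1 were called in GRD+L/D+L, with -1.62, -1.47 and -1.85. The GRwt/wt Dex libraries held 156, 39.9 and 141 CPM of Fdft1 and 51.7, 7.50 and 45.6 CPM of Tm7sf2, and those of GRL/L 31.1, 53.8 and 30.2 CPM and 8.68, 13.3 and 8.88 CPM. Lss held 84.3, 24.7 and 94.4 CPM in GRwt/wt Dex and 27.7, 18.3 and 20 CPM in GRD+L/D+L, where Tm7sf2 held 8.81, 6.49 and 8.89 CPM. For Fdft1 in GRL/L and for Lss and Tm7sf2 in GRD+L/D+L, GRwt/wt Dex replicate 2 lay within the range of the mutant, and for Tm7sf2 it lay below all GRL/L Dex libraries. Scd1 (-1.48, adjusted p 0.026) and Scd2 (-1.02, adjusted p 0.0429) were called in GRL/L, with 278, 84.8 and 405 CPM of Scd1 in GRwt/wt and 80.7, 112 and 82.8 CPM in GRL/L, and 1680, 659 and 1730 CPM of Scd2 against 612, 828 and 564 CPM. Acly passed in GRL/L (-0.87), and Fads1 passed in GRD+L/D+L (-0.90).

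In GRD/D with Dex, the largest differences from GRwt/wt were those of Stard4 (LFC 0.97, 95% interval -0.04 to 1.98), Acss2 (-0.88, -1.63 to -0.14) and Nsdhl (-0.48, -1.36 to 0.40). Stard4 held 59.8, 65.6 and 51.1 CPM in GRD/D Dex and 28.8, 15.0 and 46.4 CPM in GRwt/wt Dex, so the groups did not overlap, whereas Acss2 held 21.4, 15.6 and 14.8 CPM and Nsdhl 94.8, 83.2 and 77.7 CPM in GRD/D, both overlapping with GRwt/wt. Without GRwt/wt Dex replicate 2 the LFC of Stard4, Acss2 and Nsdhl were 0.65, -1.20 and -0.92, and without replicate 3 they were 1.43, -0.41 and -0.05. The number of calls with Dex depended on single libraries. Without GRwt/wt Dex replicate 2, 22 members were called for GRL/L and 20 for GRD+L/D+L, where 1.48% and 1.52% of all genes in the same fit were called lower. Without replicate 1 of that group the counts were 2 and 4 (0.829% and 1.58% of all genes), and without replicate 3 they were 1 and 2 (0.522% and 0.669%). A fit of only the 2 genotypes compared called 0 in both (0.395% and 0.0747%).

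Since both mutants carrying the isoleucine-to-alanine exchange were low, they were also compared with GRD/D, where no GRwt/wt library enters a group mean. GRwt/wt libraries still enter through the expression filter, the TMM scaling, the shared estimate of the spread and so the adjusted p. These comparisons were chosen after the data had been seen. Every GRL/L library lay below every GRD/D library for 28 of 33 members in vehicle (28.8% of all tested genes) and for 27 with Dex (24.7%). In GRD+L/D+L, the numbers were 28 (23% of all tested genes) and 27 (21.4%). Cell type markers differed between these groups as well. Macrophage markers summed to 258 to 919 CPM in GRD/D vehicle and 251 to 1560 CPM in GRD/D Dex, above GRD+L/D+L, with 9.38 to 78.3 and 7.82 to 74.3 CPM, but overlapping with GRL/L, with 294 to 665 and 280 to 696 CPM. Neural and glial markers with Dex summed to 71.5 to 127 CPM in GRD/D, 18.6 to 41.7 CPM in GRL/L and 14.0 to 62.9 CPM in GRD+L/D+L. Their part in these comparisons was not tested. Median LFC over the members were -0.81 in vehicle and -0.84 with Dex in GRL/L, and -1.01 and -0.93 in GRD+L/D+L, while those over all tested genes lay between 0 and 0.02.

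Fewer members met the thresholds of the test. GRL/L against GRD/D gave 0 calls and 0 passes in vehicle (background 0.375% called lower and 0.718% passing), with 21 members at an unadjusted p under 0.05 and 3 called by DESeq2. With Dex it gave 2 calls and 4 passes (0.756% and 2.81%). GRD+L/D+L against GRD/D gave 1 call in vehicle, also the single pass (0.692% and 0.927%), and 8 calls and 9 passes with Dex (1.85% and 3.38%). These counts depended on the libraries in the model, as did those of all genes. In fits of only the 2 genotypes compared, 11 members were called in GRL/L vehicle (2.57% of all genes in that fit called lower), 13 in GRL/L Dex (3.13%), 17 in GRD+L/D+L vehicle (1.85%) and 16 in GRD+L/D+L Dex (3.92%). With the replicate number as a block, 0 members were called for GRL/L (0.787% of all genes) and 3 for GRD+L/D+L (1.74%) with Dex.

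Dhcr7 was called in GRD+L/D+L in both treatments. It held 59.4 and 46.1 CPM in GRD/D vehicle and 54.0, 62.6 and 47.2 CPM in GRD/D Dex, above all GRD+L/D+L libraries, which held 23.1 to 25.7 CPM. Its LFC was -1.14 (SE 0.25, adjusted p 0.0277) in vehicle and -1.15 (SE 0.23, adjusted p 0.00703) with Dex, and -0.83 (adjusted p 0.0369) in GRL/L with Dex, where it passed. Stard4 stood out in GRD/D, with 55.0 and 52.1 CPM in vehicle and 51.1 to 65.6 CPM with Dex. In GRL/L it held 12.2, 20.4 and 14.6 CPM in vehicle (LFC -1.77, adjusted p 0.102) and 13.1, 25 and 14.5 CPM with Dex (LFC -1.75, adjusted p 0.0418, called). In GRD+L/D+L, Stard4 held 21.4 to 35.4 CPM in vehicle and 23 to 32.4 CPM with Dex, LFC of -1.01 and -1.14 that did not pass. Fdft1 was the other gene called in GRL/L with Dex, with 101, 107 and 88.9 CPM in GRD/D and 31.1, 53.8 and 30.2 CPM in GRL/L (LFC -1.37, adjusted p 0.0392), and Ebp passed (LFC -0.83, adjusted p 0.0267). In GRL/L vehicle, the largest LFC after that of Stard4 were those of Fdps (-1.56, 95% interval -2.80 to -0.32) and Msmo1 (-1.54, -2.68 to -0.40), with 10.5 and 9.67 CPM of Fdps and 140 and 121 CPM of Msmo1 in GRD/D vehicle and 34.6, 64.4 and 36.1 CPM of Msmo1 in GRL/L vehicle.

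The further genes called in GRD+L/D+L against GRD/D with Dex were Mvd, Lss, Cyp51, Insig1, Nsdhl, Sqle and Msmo1, with LFC of -1.30 to -1.72 and adjusted p of 0.0267 to 0.0474. Mvd held 45.8, 50.1 and 35.8 CPM in GRD/D Dex against 14.5, 10.4 and 16.1 CPM in GRD+L/D+L Dex, and Lss 63.6, 59.4 and 47.7 CPM against 27.7, 18.3 and 20 CPM. Cyp51 held 200, 195 and 165 CPM against 73.1, 62.6 and 67.2 CPM, and Insig1 63.5, 71.5 and 53.1 CPM against 35.1, 21.2 and 20.2 CPM. All 7 genes were without overlap, and 6 of them act in mevalonate or sterol synthesis. Sqle held 129, 139 and 112 CPM in GRD/D Dex and 51.6, 40.7 and 50.9 CPM in GRD+L/D+L Dex, and Msmo1 134, 145 and 119 CPM and 42.2, 33.3 and 45 CPM. Fads1 passed (LFC -0.86, adjusted p 0.0365), with 238, 251 and 209 CPM against 142, 120 and 122 CPM.

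**Figure D4:**
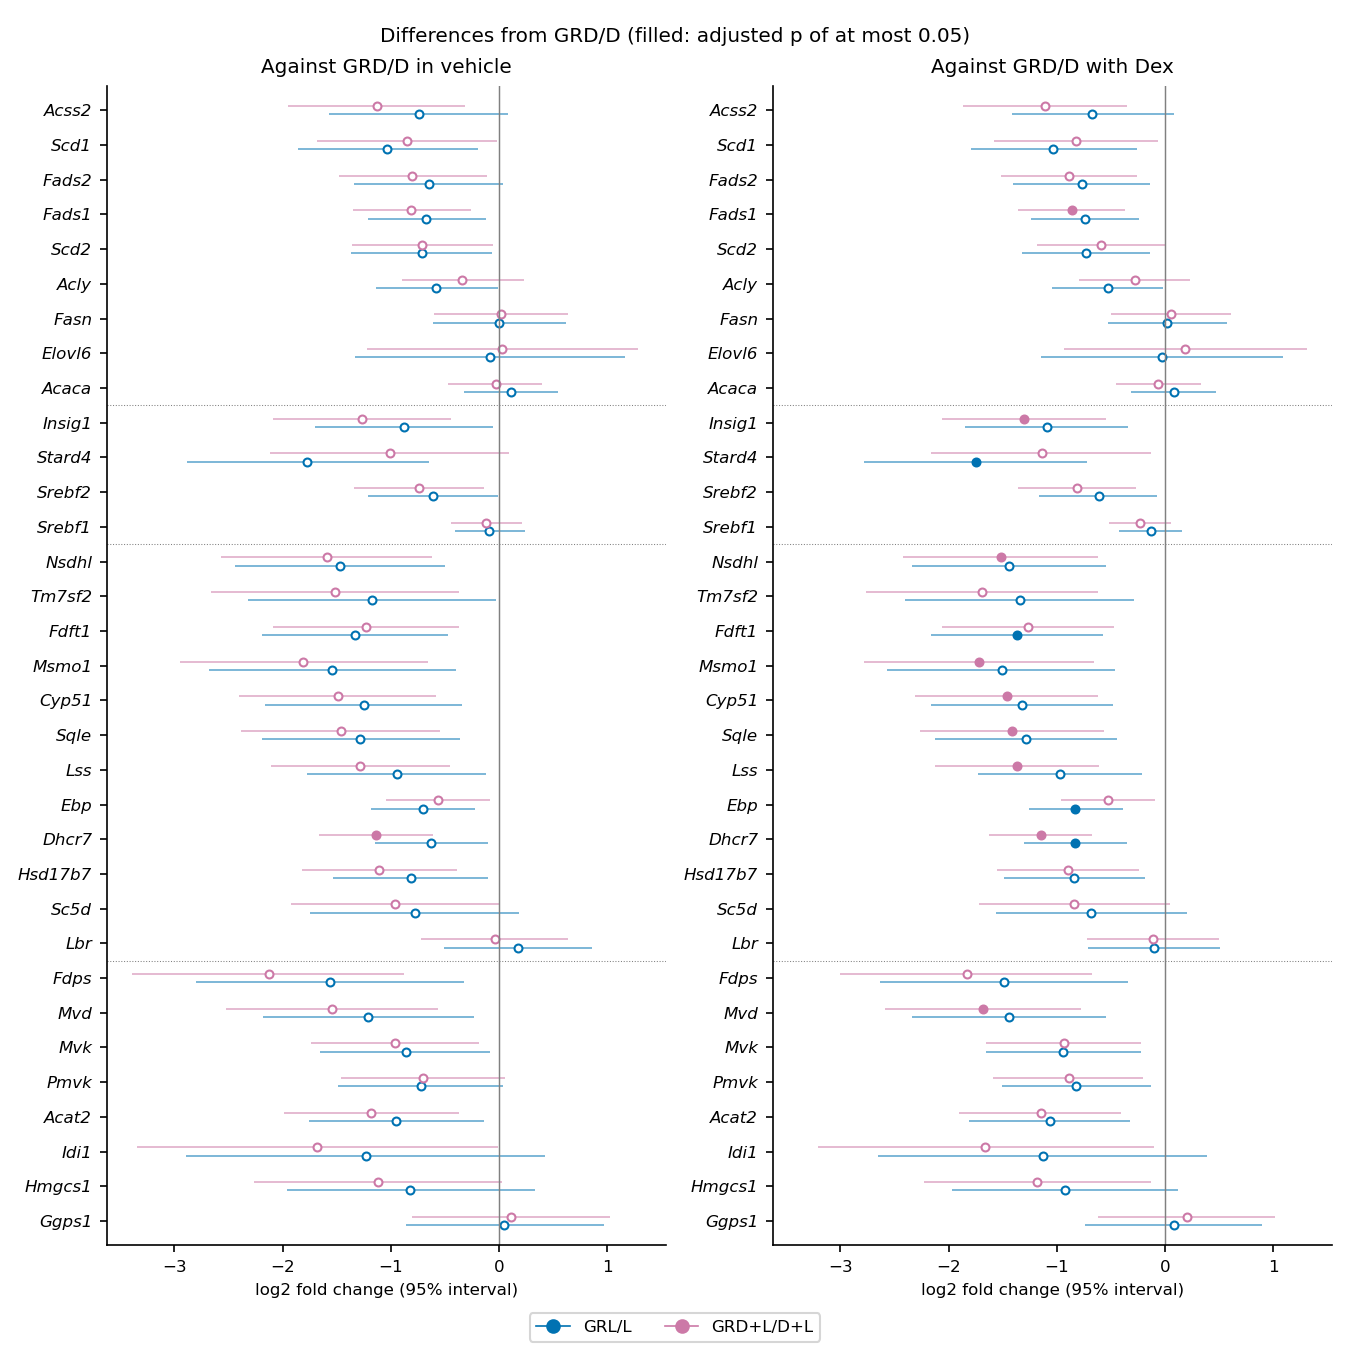
LFC with 95% interval of the 33 members in GRL/L cells and GRD+L/D+L cells against GRD/D, in vehicle (left) and with Dex (right). Filled points passed the adjusted p threshold, and most points lie below 0 although few are filled (0 and 1 in vehicle, 4 and 9 with Dex).

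Between GRD+L/D+L and GRL/L themselves, no member was called or passed in vehicle or with Dex, where 0.0826% and 0.102% of all tested genes were called lower in GRD+L/D+L. DESeq2 called 0 members in both, and 1 member in vehicle and 0 with Dex had an unadjusted p under 0.05. This comparison, too, was chosen after the data had been seen. The median LFC was -0.15 in vehicle and -0.12 with Dex, but 0.03 and 0.10 when GRL/L replicate 2 of the same treatment was left out. The 1 member, Dhcr7, held 29.8, 42.0 and 30.8 CPM in GRL/L vehicle and 25, 23.5 and 23.6 CPM in GRD+L/D+L vehicle, an LFC of -0.51 (95% interval -0.99 to -0.03, adjusted p 0.482). The largest LFC were those of Stard4 (0.75, -0.26 to 1.77) and Fdps (-0.58, -1.73 to 0.58) in vehicle, and of Stard4 (0.60, -0.41 to 1.62), Idi1 (-0.53, -2.06 to 1.01) and Acss2 (-0.45, -1.20 to 0.31) with Dex. The intervals of Stard4, Fdps, Idi1 and Acss2 reach beyond 1 on the log2 scale, so equal levels are not shown. When single libraries were left out, the LFC of Fdps in vehicle ranged from -0.80 to -0.16 (leaving out replicate 1 or 2 of GRL/L vehicle), while that of Idi1 with Dex from -0.91 (without GRD+L/D+L Dex replicate 1) to -0.04 (without GRL/L Dex replicate 2). That of Stard4 with Dex reached 0.95 without the latter.

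The other question was whether Dex changed the members within a genotype. In GRwt/wt, no member was called or passed, where 0.159% of all tested genes were called, and the LFC ranged from -0.78 (Fdps) to 0.52 (Ggps1). The median was -0.33, with 24 of 33 members below 0, against -0.01 over all tested genes. Before adjustment, 2 members had a p under 0.05, Srebf1 (LFC -0.33, SE 0.14, adjusted p 0.266) and Ebp (-0.46, SE 0.21, adjusted p 0.293), and DESeq2 called 0. In comparison, the treatment checks Fkbp5 and Tsc22d3 were called, with LFC of 3.49 (SE 0.27) and 1.92, and Dusp1 passed with 0.98.

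The median of the members in GRwt/wt rested on 1 library: without GRwt/wt Dex replicate 2 it was 0.01. The members with the largest LFC were Fdps (-0.78, 95% interval -1.89 to 0.33), Mvd (-0.68, -1.56 to 0.20) and Mvk (-0.59, -1.30 to 0.12). As given above, that library held 2.30 CPM of Fdps, 13.9 of Mvd and 21.4 of Mvk, whereas the other GRwt/wt Dex libraries held at least 16.8, 56.1 and 62.1 CPM, within the vehicle range of 11.9 to 28.5, 46.5 to 109 and 50.8 to 109 CPM. Summed over all members, it held 2200 CPM, and the GRwt/wt Dex group 4640 ± 2130 CPM (n = 3).

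No member was called or passed with Dex in any mutant, where 0% of all tested genes were called. DESeq2 called 0 members in each, and none had an unadjusted p under 0.05. The median LFC was 0.03 for GRD/D, -0.02 for GRL/L and 0.03 for the double mutant, and single LFC lay between -0.12 and 0.22 in GRD/D, -0.15 and 0.15 in GRL/L, and -0.12 and 0.22 in GRD+L/D+L. When single libraries were left out, the medians ranged from -0.06 to 0.10, -0.20 to 0.19 and -0.06 to 0.14, so their signs are not settled. Summed levels with Dex were 4120 ± 310 CPM in GRD/D, 2430 ± 500 CPM in GRL/L and 2470 ± 352 CPM in GRD+L/D+L (n = 3 each), next to the vehicle values given above. In these last 2 genotypes, libraries with the same number deviated together, and the sum changed little but in 1 direction within them. It was 2230, 3060 and 2190 CPM in GRL/L vehicle and 2170, 3010 and 2120 CPM in the Dex libraries of the same numbers, lower with Dex in all 3. The sums of GRD+L/D+L were 2800, 2200 and 2270 CPM in vehicle and 2870, 2210 and 2330 CPM with Dex, higher in all 3. Lower in all 3 GRL/L pairs were 7 of 33 members, Lbr among them, and 1 was higher (13.1% and 12% of all tested genes). Of the GRD+L/D+L members, 0 were lower and 6 higher in all 3 (12.7% and 14.1%), Lbr being one of the 6. Scd2, the member with the highest level, was among the 7 in GRL/L and among the 6 in GRD+L/D+L. A sum of CPM follows such a member most, so the direction of the sums does not describe the 33 members in general. With the replicate number as a block, 0 members were called in either genotype and 0 had a p under 0.05 before adjustment. The largest LFC in GRD/D were those of Pmvk (0.22, 95% interval -0.55 to 0.99), Mvd (0.15, -0.83 to 1.14) and Stard4 (0.14, -0.99 to 1.26). In GRL/L they were those of Stard4 (0.15, -0.86 to 1.17), Dhcr7 (-0.15, -0.63 to 0.32) and Lbr (-0.15, -0.75 to 0.46), and in GRD+L/D+L those of Fdps (0.22, -0.95 to 1.38), Acat2 (0.14, -0.60 to 0.88) and Hsd17b7 (0.13, -0.53 to 0.78).

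Tests of the difference between the Dex response of a mutant and that of GRwt/wt called 0 members in each mutant, by edgeR and by DESeq2, and 0 had a p under 0.05 before adjustment. The background was 0% of all tested genes called for GRD/D, and 0.0254% for both other mutants. The median differences were 0.37, 0.29 and 0.34 on the log2 scale, and these share the GRwt/wt libraries. Without GRwt/wt Dex replicate 2 they were 0.03, -0.03 and 0.00, and without replicate 3 of that group 0.62, 0.61 and 0.62. The largest differences were 0.83 (Mvd, 95% interval -0.50 to 2.16) in GRD/D, 0.77 (Fdps) in GRL/L and 1.00 (Fdps) in GRD+L/D+L. When single libraries were left out, they ranged from 0.40 to 1.19, 0.27 to 1.19 and 0.50 to 1.31. Each was lowest without GRwt/wt Dex replicate 2.

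**Figure D5:**
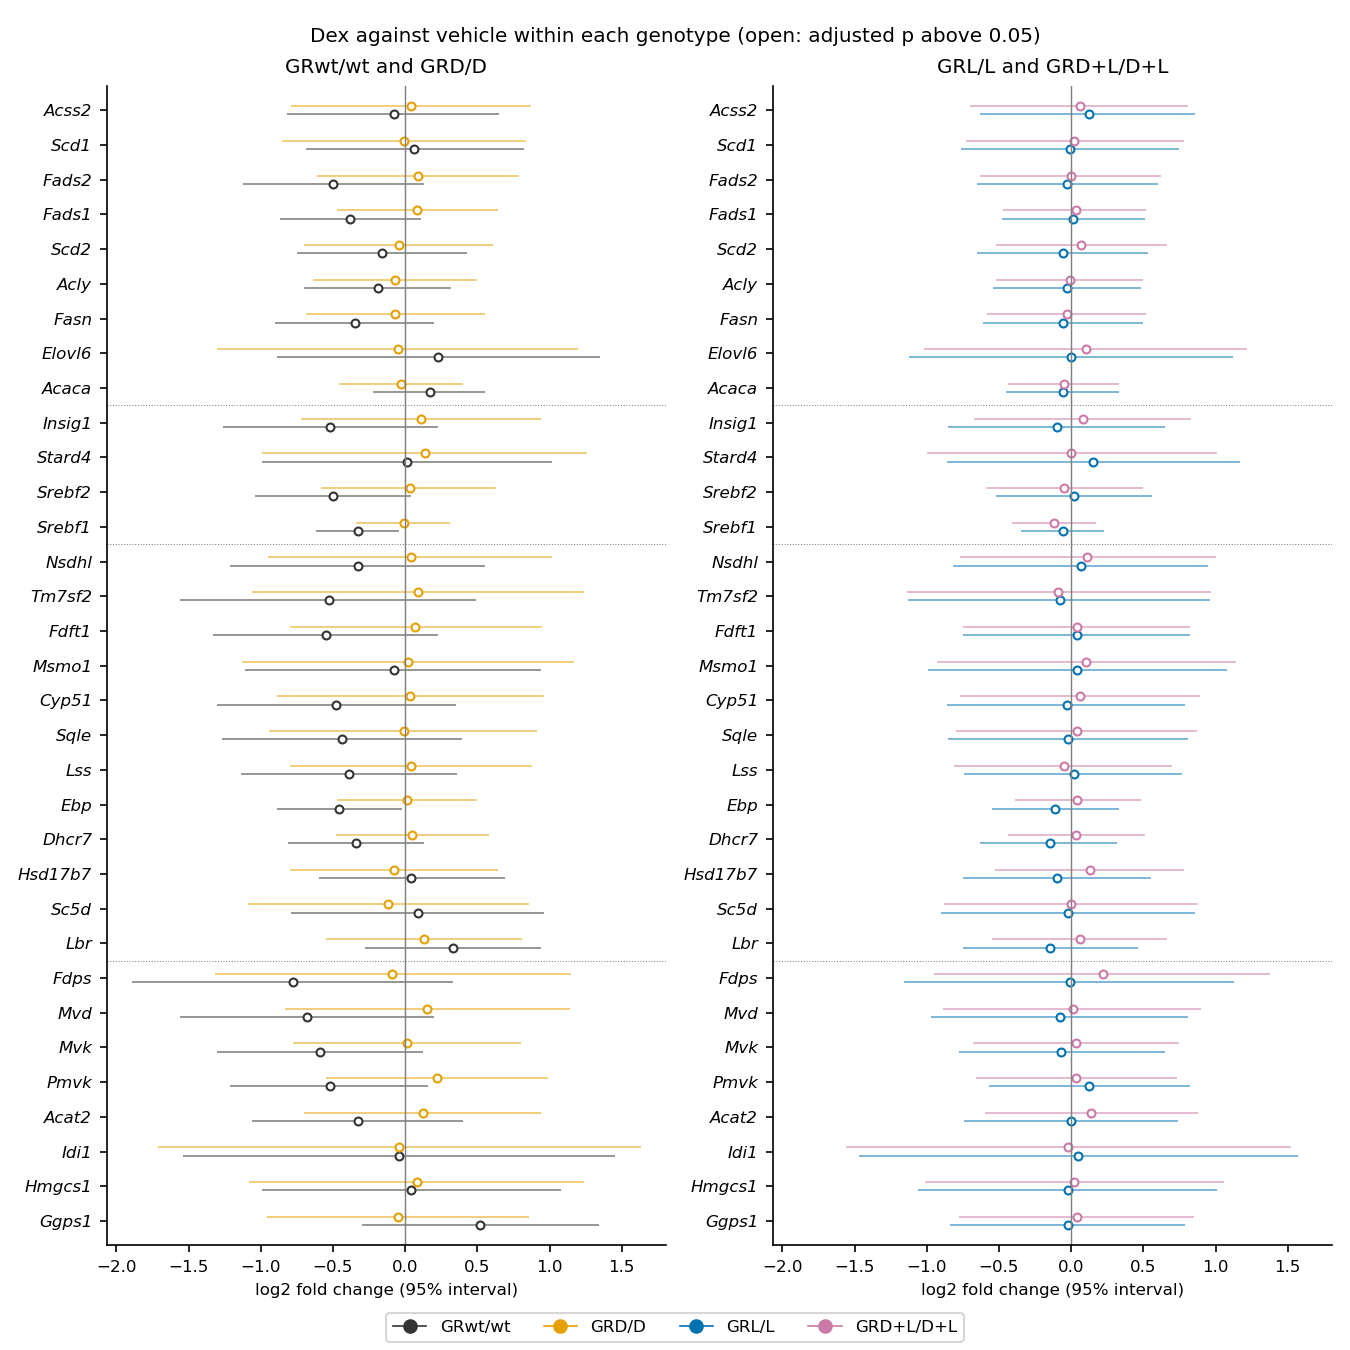
LFC with 95% interval of the 33 members with Dex against vehicle in each of the 4 genotypes. All points are open, as no member passed, and the GRwt/wt points lie mostly below 0 (median -0.33) while those of the mutants lie close to 0.

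Levels of different members are compared per kilobase of exon. Scd2 had the highest level, with group means of 122 to 277 CPM per kb, above those of every other member. Below it, the ranges of the group means overlapped, as for Acly (41.0 to 85.4), Fads1 (26.1 to 64.6), Hmgcs1 (26.1 to 59.9) and Cyp51 (14.7 to 59.2), and for Fdps (0.547 to 4.93), Acss2 (0.755 to 3.32) and Acaca (2.56 to 3.25), so no further order is drawn. Acat2, Acaca, Fdft1, Fdps and Idi1 share 25.3% to 39.1% of their 50-base stretches with other genes, and their counts may be incomplete.

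Members also varied together between the cultures of a group. After subtraction of the group means, the 528 pairs of members had a median Pearson r of 0.70 over the 23 libraries, with 325 pairs (61.6%) above 0.5 and 58 (11%) below 0. Over all pairs of tested genes, the median was 0, with 15.6% above 0.5 and 50.1% below 0. Over the 17 libraries of the mutant genotypes, the median was 0.76, with 391 pairs (74.1%) above 0.5 and 37 (7.01%) below 0, and over all pairs of tested genes it was 0, with 14% and 49.7%. The points share library and depth, in both ligand-binding domain mutants same-numbered vehicle and Dex libraries deviated together across all genes, and the correlation is given as a description. Fdft1, Acly and Fads1 had the highest median r with the other members over the 23 libraries (0.88 each). Ggps1 had the lowest, -0.29 over all and -0.54 over the mutant libraries. Ebp (0.24) and Hsd17b7 (0.27) were also low over the mutant libraries.

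This variation followed the replicate number in both GRL/L cells and GRD+L/D+L cells. The median deviation of the members from their overall median was -0.41, 0.00 and -0.44 in GRL/L vehicle replicates 1, 2 and 3 and -0.44, 0.01 and -0.50 in the Dex replicates, so replicate 2 was the high one in both treatments. In GRD+L/D+L, replicate 1 was the high one, with -0.17 against -0.49 and -0.46 in vehicle and -0.16 against -0.51 and -0.37 with Dex. Cyp51, for example, held 59.3, 105 and 65.4 CPM in GRL/L vehicle and 58.0, 105 and 61.0 CPM in GRL/L Dex, and Elovl6 78.6, 37.8 and 35.1 CPM in GRD+L/D+L vehicle and 83.8, 40.8 and 38.2 CPM with Dex.

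Finally, 21 other genes of the pathway were examined, of which 19 were tested. They comprised the SREBP processing genes Scap, Insig2, Mbtps1, Mbtps2 and Rnf139, the liver X receptors and their targets, and genes of sterol trafficking and fatty acid handling. In vehicle, 2 passed for GRL/L and 3 for GRD+L/D+L, all lower and none called, with median LFC of 0.02 and -0.20 over the 19 genes. As given above, 14.2% and 13.3% of all tested genes passed lower in these comparisons, so these few genes are close to the background. Those that passed were Npc2, a lysosomal sterol-binding protein (LFC -0.63 for GRL/L and -0.49 for GRD+L/D+L), Nr1h2, a liver X receptor (-0.44 and -0.40), and, in GRD+L/D+L, the elongase Elovl5 (-0.40). None of the 5 SREBP processing genes passed. With Dex, Elovl5 was the single gene of the list to pass, with -0.49 (adjusted p 0.0241) in GRL/L and -0.56 (adjusted p 0.0164) in GRD+L/D+L. Against GRD/D, Npc1 passed in GRD+L/D+L with Dex (-0.45, adjusted p 0.0429). No gene of the list passed in the higher direction in any comparison. Abca1, a sterol exporter and target of liver X receptors, missed the threshold (LFC 1.84 in GRL/L vehicle, adjusted p 0.0529). Its GRwt/wt vehicle libraries held 8.27, 73.5 and 106 CPM, the low value in replicate 1, and its GRL/L libraries 182 to 256 CPM.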

How the data were processed

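RNA-seq counts of 23 MEF libraries were used. The authors deposited raw read counts per Ensembl gene. Per the submitters' processing notes and the methods, TruSeq libraries of total RNA were mapped to the mouse genome (mm10, GRCm38) with HISAT2 2.1.0 and uniquely mapped reads were counted with featureCounts 2.0.0. The annotation release and strandedness are not given in the sources used here, so counts of overlapping genes and of genes with near-identical copies are uncertain.

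The quasi-likelihood test of edgeR 4.0.16 was run in R 4.3.3, with all 23 libraries in 1 model, a mean per group, TMM scaling, filterByExpr (minimum count 10) and a prior count of 0.125. Adjustment was by Benjamini-Hochberg over all 15748 genes tested. SE were taken from the LFC and its F statistic. The script was tested on simulated counts. Thresholds followed the study, which used DESeq2. Here DESeq2 1.42.0 was an alternative, beside other scalings, filters, sample choices, a replicate block, GC content offsets and leaving out each library. The origin of the replicates is stated only for a companion experiment, and no pair in a group matched within counting noise. Same-numbered vehicle and Dex libraries deviated together in GRL/L (r 0.322 to 0.644) and GRD+L/D+L (0.652 to 0.887), but not in all pairs of GRwt/wt or GRD/D.

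The members, the other lists and the tests were chosen with earlier results of these data known. Some genes of the pathway are not reported here. Values in every library are given for members that passed (up to the 10 with the smallest adjusted p per comparison) or, where none passed, for the 3 with the largest LFC, plus a few chosen after their values were seen. Coordinates and exon lengths are from GENCODE M21, promoter windows from RefSeq (GRCm38.p6).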

Additional observations from a re-analysis of the deposited data

How the results depend on the processing

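Counts of called members against GRwt/wt in vehicle kept their direction under every alternative run, with ranges of 19 to 24 in GRL/L and 17 to 22 in GRD+L/D+L when single libraries were left out, and of 0 to 2 in GRD/D. A fit of only the genotypes compared gave 1 in GRD+L/D+L. With Dex, the ranges were 1 to 22 in GRL/L and 2 to 20 in GRD+L/D+L. Fits of only the genotypes compared gave 0 and 0, and leaving out GRwt/wt vehicle replicate 1 and GRwt/wt Dex replicate 2 together, a choice made after seeing the data, gave 25 and 23 (2.53% and 3.17% of all genes called lower). The cause was not tested.

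Against GRD/D, leaving out single libraries gave 0 to 5 (GRL/L vehicle), 0 to 12 (GRL/L Dex), 0 to 12 (GRD+L/D+L vehicle) and 1 to 16 (GRD+L/D+L Dex), where the highest counts were obtained without GRwt/wt Dex replicate 2 or, for the last, without GRwt/wt vehicle replicate 1. In GRL/L vehicle (0 as reported), the other counts were 11 with only the genotypes compared, 3 by DESeq2, 1 with GC content offsets, 3 with GRwt/wt vehicle replicates 1 and 3 left out, and 10 when vehicle replicate 1 and Dex replicate 2 of GRwt/wt were left out, where 2.57%, 0.432%, 0.33%, 0.933% and 1.04% of all genes in the same fits were called lower. In GRL/L Dex (2 as reported), they were in the same order 13, 10, 6, 11 and 12 (all genes 3.13%, 0.752%, 0.87%, 1.64% and 1.61%), and also 4 with RLE scaling (0.806%), 1 with upper-quartile scaling (0.737%), 1 with no expression filter (0.313%), 5 with at least 10 counts in every library (0.883%) and 4 at the adjusted p alone (2.81%). In GRD+L/D+L vehicle (1 as reported), they were 17, 10, 2, 11 and 17 (1.85%, 0.945%, 0.883%, 2.8% and 1.99%), and in GRD+L/D+L Dex (8 as reported) 16, 13, 13, 16 and 16 (3.92%, 1.91%, 2.26%, 4.75% and 4.09%).

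The replicate number as a block gave 21 calls for GRL/L and 20 for GRD+L/D+L against GRwt/wt in vehicle (2.63% and 3.63% of all genes), 9 and 11 with Dex (1.09% and 1.74%), and against GRD/D 0 and 0 in GRL/L (0.432% and 0.787%) and 1 and 3 in GRD+L/D+L (0.838% and 1.74%), in vehicle and with Dex. In GRwt/wt, Dex replicates 2 and 3 did not deviate with their own vehicle number (r 0.0266 and -0.0265) but with vehicle replicates 3 and 2 (0.375 and 0.544). The summed adipocyte markers, 232 and 206 CPM in vehicle 3 and Dex 2 and 76.1 and 78.9 CPM in vehicle 2 and Dex 3, were close across numbers, but the macrophage markers were not, with 4550 CPM in vehicle 3 and 93.4 CPM in Dex 2. The block thus joins GRwt/wt libraries that did not deviate together, and whether the numbers are crossed was not tested. No other count of called members moved by more than 1.5 times under the block.

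Comparisons of Dex with vehicle and of Dex responses gave 0 calls under all alternatives. Signs turned for some members in them. Without GRwt/wt vehicle replicate 1 and Dex replicate 2, the LFC with Dex in GRwt/wt was 0.01 for Fdps, 0.14 for Mvd and 0.08 for Mvk, and the differences in response were -0.10 (Fdps, GRD/D), -0.02 and -0.22 (Fdps and Mvd, GRL/L) and -0.14 and -0.05 (Mvd and Mvk, GRD+L/D+L). When single libraries were left out, the LFC with Dex ranged from -0.03 to 0.35 for Mvd in GRD/D, from -0.31 to 0.02 for Dhcr7 and -0.19 to 0.38 for Stard4 in GRL/L, and from -0.05 to 0.41 for Acat2 and -0.06 to 0.42 for Fdps in GRD+L/D+L. Of 3060 values for single members under alternatives, 14 changed sign, 232 lost and 11 gained their side of the threshold. Group mean levels moved by at most 1.79% without TMM scaling. Groups of 2 or 3 libraries and the spread of GRwt/wt limit the precision, at depths of at least 16.5 M counts.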
